A study of Mus musculus with 12 samples.

Results

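The 4 genes described here, Oas2, Oas3, Oasl1 and Oasl2, are the members of the oligoadenylate synthetase (OAS) family that were chosen by name from the 51609 gene rows of a liver count table. All 4 were among the 17652 genes that passed the filter on low counts. Livers came from C57BL/6 mice in 4 groups of 3 mice: wild-type mice on water, wild-type mice given 2% dextran sodium sulfate (DSS) for 6 days, and mice labelled as Rela and Stat3 knockouts (RelaΔhepStat3Δhep, here KO-labelled) on water or on the same DSS course. DSS in drinking water injures the colon epithelium, and the study asked how the liver responds to this colitis and how hepatocyte Rela and Stat3 bear on it. Per the study's methods, the knockout is specific to hepatocytes, with Cre driven by the albumin promoter, and the wild-type mice were Cre-negative littermates. By this design the other liver cells should keep both genes. Each library was bulk RNA of whole liver, depleted of rRNA, so fewer cells of a type and less RNA per cell cannot be told apart.

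OAS enzymes bind double-stranded RNA and join ATP into short oligoadenylates, a signal that leads to the cutting of viral and cellular RNA. The genes are classic targets of type I and type III interferons, acting through ISGF3 on interferon-stimulated response elements (ISRE), and in liver they can be made by hepatocytes, Kupffer cells and other cell types. Oas2 and Oas3 encode larger synthetases, and Oas3 is the family member best known for sensing long double-stranded RNA. Oasl1 and Oasl2 carry ubiquitin-like repeats behind the OAS fold. Mouse Oasl1 lacks synthetase activity and is known to restrain translation of Irf7 mRNA, whereas mouse Oasl2 keeps synthetase activity.

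All 4 genes lie on chromosome 5, in pairs (mm9, GENCODE vM1). Oasl2 (ENSMUSG00000029561) spans chr5:115346943-115362243 on the plus strand, with 7 merged exons of 3881 bases in all. Oasl1 (ENSMUSG00000041827) follows 11005 bases downstream at chr5:115373249-115387924, also on the plus strand, with 6 merged exons of 2608 bases. Oas2 (ENSMUSG00000032690) spans chr5:121180342-121199862 on the minus strand, with 12 merged exons of 4451 bases, and Oas3 (ENSMUSG00000032661) lies 3244 bases away at chr5:121203107-121227670 on the same strand, with 15 merged exons of 5227 bases. The first bases of Oasl1 overlap Gm13822, a minus-strand processed transcript, and reads there could belong to either where strand was not used in counting. No stretch of 50 bases in the protein-coding transcripts of Oas2, Oasl1 or Oasl2 occurred in a protein-coding transcript of another gene. For Oas3 the share was 0.47%. Transcripts of non-coding genes, such as Gm13822, were not searched.

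RefSeq (GRCm38.p6) gave a promoter for 3 of the 4 members, Oas3, Oasl1 and Oasl2. The 250 bases before each start are printed because the members were higher together in DSS-treated livers and because ISRE are the textbook route to these genes. Capitals mark matches, on either strand, to a shortened ISRE form, AAANNGAAA, to the ISRE core, which is that form with 1 fixed base more at its front, or to the NF-kB consensus. A match to the core is therefore also a match to the shortened form. These forms were chosen after the sequences were seen.
Oas3: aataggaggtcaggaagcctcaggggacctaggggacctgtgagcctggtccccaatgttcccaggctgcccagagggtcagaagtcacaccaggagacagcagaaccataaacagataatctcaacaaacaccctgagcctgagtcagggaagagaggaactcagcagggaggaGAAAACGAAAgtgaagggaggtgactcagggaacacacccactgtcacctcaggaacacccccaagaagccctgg
Oasl1: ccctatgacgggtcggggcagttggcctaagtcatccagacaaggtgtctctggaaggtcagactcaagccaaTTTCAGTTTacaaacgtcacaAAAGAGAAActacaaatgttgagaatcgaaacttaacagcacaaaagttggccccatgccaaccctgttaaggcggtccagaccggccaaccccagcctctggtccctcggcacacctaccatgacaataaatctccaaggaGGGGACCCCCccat
Oasl2: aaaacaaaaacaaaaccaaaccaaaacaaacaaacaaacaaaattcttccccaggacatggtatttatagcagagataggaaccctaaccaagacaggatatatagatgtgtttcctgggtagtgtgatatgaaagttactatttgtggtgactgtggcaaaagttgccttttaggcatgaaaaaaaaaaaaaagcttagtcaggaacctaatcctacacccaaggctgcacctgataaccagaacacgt
They lie at chr5:120777660-120777909 (minus strand, Oas3), chr5:114922990-114923239 (plus strand, Oasl1) and chr5:114896684-114896933 (plus strand, Oasl2). Oas3 held 1 ISRE core at bases 75 to 66 before the start, a form found in 2.98% of the 32851 RefSeq promoter windows of this length. Oasl1 held 2 matches to the shortened form, at bases 177 to 169 and 156 to 148, which 9.37% of windows hold, and 1 match to the NF-kB consensus at bases 14 to 5, which 3.9% hold. The window of Oasl2 held none of these letters, and none of the 3 windows held TTCNNNGAA, the site letters of STAT dimers, which 7.02% of windows hold. A match describes letters and is not evidence of binding.

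The libraries summed to between 65879529 and 82850098 estimated counts, and the lowest estimated count of a member was 119. Values below are normalized counts (CPM, CPM scaled by TMM, a factor for library composition). Several features of the libraries touch the comparisons. Rela, which the label says is deleted, was at 39.5 to 62.3 CPM in the KO-labelled libraries and 39.8 to 55.5 in the wild-type ones. Stat3 was at 43.0 to 74.8 CPM in the KO-labelled libraries and 45.7 to 329.5 in the wild-type ones. In untreated liver Stat3 was at 45.9, 46.7 and 49.7 CPM in KO-labelled and 45.7, 137.6 and 87.6 CPM in wild-type mice. Both transcripts thus overlapped between genotypes in untreated liver, and counts per gene do not show which exons were read. The study itself characterized the strain by genotyping and by western blots of total Rela and Stat3 in liver and colon. Xist was at 903 to 1283 CPM in the 3 DSS-treated KO-labelled libraries and at 29.0 or lower in the 3 untreated KO-labelled ones. In the KO-labelled mice DSS and sex-linked transcripts therefore cannot be told apart, and the same holds for genotype within the DSS-treated mice. Untreated wild-type library 3 also stood apart, with 1143 CPM of Xist beside a summed 30.1 CPM of Y-linked transcripts. Hepatocyte markers (8 of 10 with a row) summed to 83134 to 169564 CPM over the 12 libraries, and their change with DSS is given with the other markers.

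**Figure D1:**
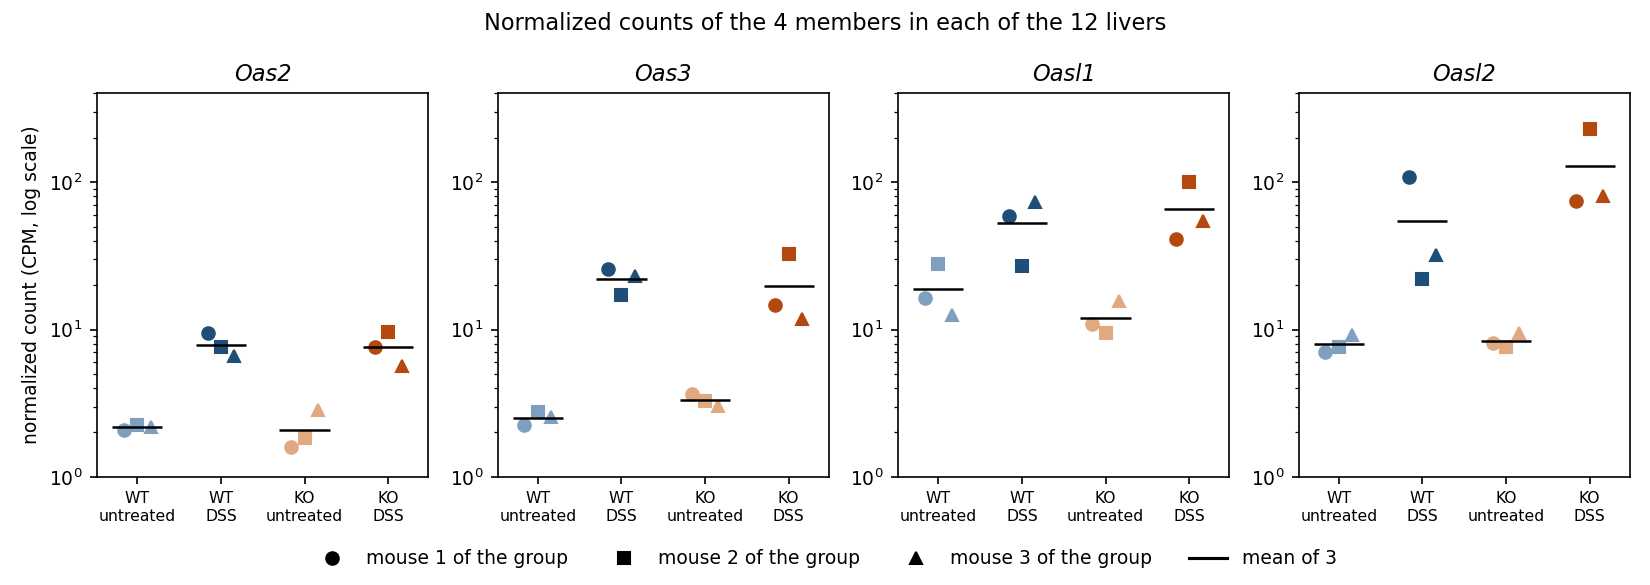
Normalized counts (CPM, log axis) of each member in each liver, by group, with symbols for the mouse number within a group and a line for the mean of 3. The DSS-treated mice sit above the untreated mice of their genotype for every member except Oasl1 in wild-type mice, where 26.8 and 27.8 CPM overlap.

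In wild-type mice Oas2 and Oas3 rose with DSS. Oas2 was at 2.08, 2.24 and 2.17 CPM in the untreated mice and at 9.50, 7.56 and 6.66 CPM in the DSS-treated mice. The untreated values were within 1.08-fold of each other, and each DSS-treated mouse exceeded every untreated mouse by at least 2.97-fold. The means were 2.16 ± 0.08 and 7.91 ± 1.45 CPM (SD, n = 3), a log2 fold change of 1.87 (SE 0.26, edgeR quasi-likelihood test, adjusted p = 0.00782). Oas3 was at 2.25, 2.75 and 2.53 CPM without DSS and at 25.7, 17.2 and 23.0 CPM with it. It had the larger change, and the lowest DSS-treated mouse was 6.26-fold above the highest untreated one. The means were 2.51 ± 0.25 and 21.96 ± 4.36 CPM (SD, n = 3), a log2 fold change of 3.13 (SE 0.33, edgeR adjusted p = 0.00215), which ranked 4 by p-value among all genes tested.

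The OAS-like genes were higher on average in the DSS-treated wild-type mice but did not pass the test. Oasl1 was at 16.3, 27.8 and 12.6 CPM in untreated mice and at 59.0, 26.8 and 73.0 CPM after DSS. DSS-treated mouse 2 lay below untreated mouse 2, so the groups overlapped, and in the exact permutation test p was 0.2. The log2 fold change was 1.49 (SE 0.44, edgeR adjusted p = 0.153). Oasl2 was at 7.08, 7.64 and 9.14 CPM in untreated mice and at 109, 22.0 and 32.0 CPM after DSS. All 3 DSS-treated mice were above all 3 untreated mice, but they differed 4.96-fold among themselves. The log2 fold change was 2.78 (SE 0.63, edgeR adjusted p = 0.0841). Leaving out DSS-treated mouse 2, with 0.7% of all tested genes then called higher, gave 3.15 (adjusted p = 0.0484), and leaving out mouse 1 gave 1.76 (adjusted p = 0.0892).

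In all, 2 of the 4 members were called higher in wild-type mice, where 0.453% of all tested genes were called higher. The median log2 fold change of the 4 was 2.32, against 0.02 over all tested genes. For 3 of the 4 the groups did not overlap, which held in this direction for 9.49% of all genes. DESeq2 called 4 of the 4, with 3.65% of its tested genes called higher, and gave adjusted p-values of 0.00739 for Oasl1 and 0.00217 for Oasl2. Without untreated mouse 3, Oas2 (log2 fold change 1.87, adjusted p = 0.0418) and Oas3 (3.13, adjusted p = 0.0243) stayed below the threshold of 0.05. With 3 mice against 3, an exact permutation test cannot give a p below 0.1, the value it gave for Oas2, Oas3 and Oasl2.

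In KO-labelled mice all 4 members rose with DSS, in libraries that also differed in sex-linked transcripts. Oas2 was at 1.58, 1.83 and 2.85 CPM in untreated mice and at 7.66, 9.55 and 5.65 CPM in DSS-treated mice. The groups were apart by 1.98-fold at their closest. The means were 2.09 ± 0.67 and 7.62 ± 1.95 CPM (SD, n = 3), and the log2 fold change was 1.87 (SE 0.26, edgeR adjusted p = 0.00204). Oas3 was at 3.67, 3.27 and 3.04 CPM without DSS and at 14.6, 32.6 and 11.8 CPM with it. Mouse 2 stood above the other DSS-treated mice, and the lowest of the 3 was still 3.22-fold above the highest untreated mouse. The log2 fold change was 2.56 (SE 0.32, edgeR adjusted p = 0.00147).

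Oasl1 in KO-labelled mice was at 10.9, 9.46 and 15.7 CPM without DSS and at 41.3, 100.2 and 54.8 CPM with it. The 2 groups did not overlap, and the log2 fold change was 2.45 (SE 0.46, edgeR adjusted p = 0.0138). Oasl2 was at 8.11, 7.62 and 9.50 CPM without DSS and at 74.5, 229.6 and 80.1 CPM with it. It had the highest fold change of the 4 in this comparison, with a log2 value of 3.93 (SE 0.66, edgeR adjusted p = 0.0104), or 15.2-fold with a 95% interval of 5.48 to 42.3. Without DSS-treated mouse 2 the log2 fold change was 3.20 (adjusted p = 0.0228). Leaving out untreated mouse 2 raised the adjusted p to 0.0736 for Oasl1 and to 0.0631 for Oasl2, at log2 fold changes of 2.30 and 3.87, and in that fit 0.837% of all tested genes were called higher, against 4.57% with all mice.

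Thus 4 of the 4 members were called higher in KO-labelled mice, where 4.57% of all tested genes were called higher. Their median log2 fold change was 2.50, against -0.01 over all tested genes. The groups did not overlap for any of the 4, as for 17.8% of all genes in this direction, and the exact permutation test gave its smallest p of 0.1 for each.

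**Figure D2:**
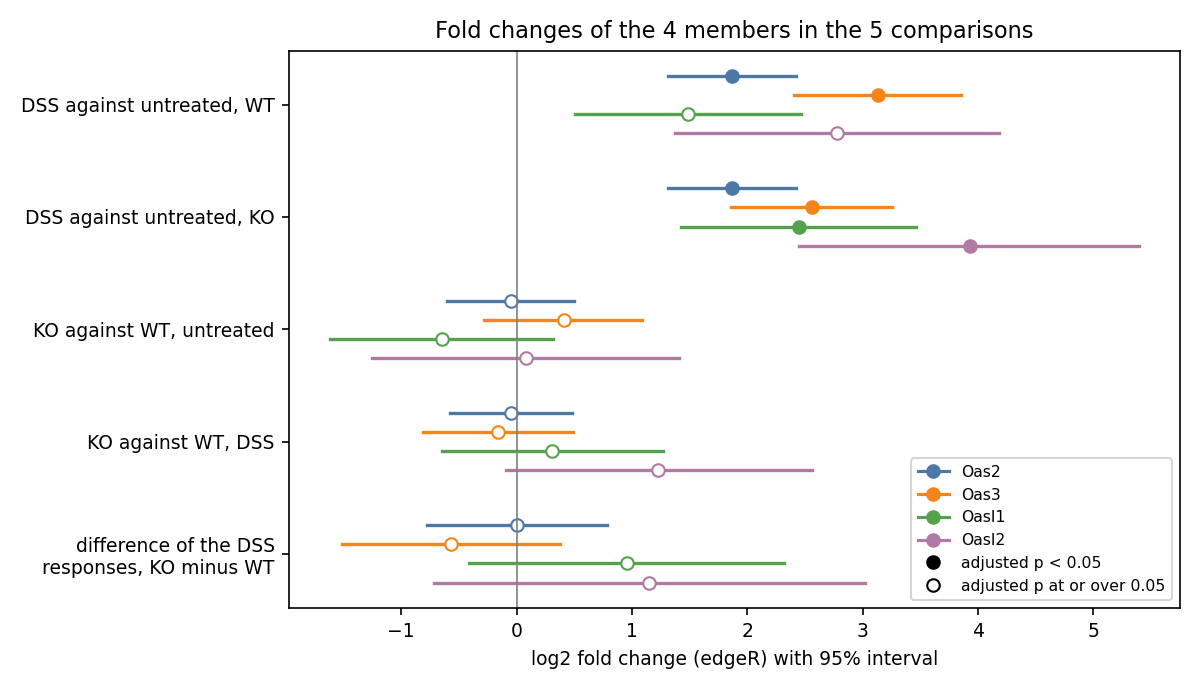
Log2 fold change of each member (point) with its 95% interval (line) in the 5 comparisons, filled where the edgeR adjusted p was below 0.05. The filled points are Oas2 and Oas3 in both DSS comparisons and Oasl1 and Oasl2 in KO-labelled mice, and the intervals of the genotype comparisons and of the difference of the responses include 0.

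None of the 4 members passed the test between genotypes. In untreated liver the log2 fold changes of KO-labelled against wild-type mice were -0.05 for Oas2 (95% interval -0.60 to 0.50) and 0.41 for Oas3 (-0.28 to 1.09). They were -0.65 for Oasl1 (-1.62 to 0.32) and 0.08 for Oasl2 (-1.25 to 1.41). For Oas3 alone the groups did not overlap, with 3.04 to 3.67 CPM in KO-labelled and 2.25 to 2.75 CPM in wild-type mice (edgeR adjusted p = 0.666), a separation in this direction that 9.56% of all tested genes showed. In this comparison 0 of 4 were called, as were 0.0623% of all tested genes. With DSS the log2 fold changes were -0.05 for Oas2 (-0.58 to 0.48), -0.16 for Oas3 (-0.81 to 0.49), 0.31 for Oasl1 (-0.65 to 1.27) and 1.23 for Oasl2 (-0.09 to 2.56). Here 0 of 4 were called, as were 0.334% of all genes. The value for Oasl2 rested on single livers in both directions: without DSS-treated wild-type mouse 1 its log2 fold change was 2.25 (SE 0.46, edgeR adjusted p = 0.0391, with 2.14% of all tested genes then called), and without DSS-treated KO-labelled mouse 2 it was 0.51 (SE 0.54, adjusted p = 0.726). Without that KO-labelled mouse Oas3 had -0.73 (SE 0.20, adjusted p = 0.163).

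The difference of the DSS responses, KO-labelled minus wild-type, was tested as an interaction term. It was -0.00 on the log2 scale for Oas2 (95% interval -0.78 to 0.78) and -0.57 for Oas3 (-1.51 to 0.38). It was 0.96 for Oasl1 (-0.41 to 2.32) and 1.15 for Oasl2 (-0.72 to 3.02). For Oasl2 it was 2.17 without DSS-treated wild-type mouse 1 (edgeR adjusted p = 0.113) and 0.43 without DSS-treated KO-labelled mouse 2 (adjusted p = 0.805). Without the latter the value for Oas3 was -1.14 (SE 0.26, edgeR adjusted p = 0.0822). With 0 of 4 called, against 0.408% of all genes, the calls for Oasl1 and Oasl2 in KO-labelled mice alone do not show that their responses differed between genotypes. In these 3 comparisons 0 of the 4 members had an unadjusted edgeR p below 0.05, where 11.7%, 14.3% and 16.3% of all tested genes had one. DESeq2 called 0 of the 4 in each, beside 2.31%, 3.4% and 4.5% of its tested genes, and limma-voom called 0, beside 0.538%, 0.164% and 0.368%. With 4 members, a count of 0 is near these shares and says nothing particular about them. The intervals run up to a 5-fold stronger response in KO-labelled mice for Oasl1 and an 8.13-fold stronger one for Oasl2.

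Per kilobase of merged exon, Oasl1 and Oasl2 were above Oas2 and Oas3 in all 4 groups, with and without DSS. In untreated wild-type liver Oasl1 was at 7.24 ± 3.04 CPM per kilobase and Oasl2 at 2.05 ± 0.28 (SD, n = 3). Oas2, at 0.486 ± 0.018, and Oas3, at 0.480 ± 0.048, did not differ beyond their spread. In untreated KO-labelled liver the levels were 4.61 ± 1.25 for Oasl1, 2.17 ± 0.25 for Oasl2, 0.636 ± 0.061 for Oas3 and 0.469 ± 0.151 CPM per kilobase for Oas2, and the last 2 overlapped. After DSS, wild-type liver had 20.3 ± 9.07 for Oasl1 and 14.0 ± 12.3 CPM per kilobase for Oasl2, which overlapped, then 4.20 ± 0.83 for Oas3 and 1.78 ± 0.33 for Oas2. DSS-treated KO-labelled liver had 33.0 ± 22.7 for Oasl2 and 25.1 ± 11.8 CPM per kilobase for Oasl1, again overlapping, then 3.76 ± 2.16 for Oas3 and 1.71 ± 0.44 for Oas2. Oas2 and Oas3 did not overlap in either DSS-treated group. Single livers carried the Oasl2 levels after DSS: without wild-type mouse 1 the mean was 6.96, and without KO-labelled mouse 2 it was 19.9 CPM per kilobase.

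Ratios of members within a liver do not depend on the scaling of the library. The ratio of Oas3 to Oas2 per kilobase was 0.922 to 1.04 in untreated and 1.94 to 2.94 in DSS-treated wild-type mice, without overlap. In KO-labelled mice it was 0.908 to 1.98 without DSS and 1.62 to 2.90 with it, which overlapped. The ratio of Oasl2 to Oasl1 was 0.407 to 0.541 in untreated and 0.982 to 1.54 in DSS-treated KO-labelled mice. In wild-type mice that ratio was 0.185 to 0.488 without DSS and 0.295 to 1.24 with it. Of the 12 such comparisons (6 pairs of members in each genotype), 5 did not overlap, but with 3 mice a group the lowest adjusted p of the exact permutation tests was 0.24, so none passed a threshold of 0.05.

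The spread among DSS-treated mice was not the same for each member. Among DSS-treated wild-type mice the highest was 1.43-fold above the lowest for Oas2 and 1.50-fold for Oas3, but 2.72-fold for Oasl1 and 4.96-fold for Oasl2. Among KO-labelled ones the span was 1.69-fold for Oas2, 2.76-fold for Oas3, 2.42-fold for Oasl1 and 3.08-fold for Oasl2, so there Oas3 was as variable as Oasl1. Against the untreated mean of its genotype, Oasl2 was 13.7-fold higher in wild-type mouse 1, 2.77-fold in mouse 2 and 4.02-fold in mouse 3. It was 8.86-fold, 27.3-fold and 9.53-fold higher in the 3 KO-labelled mice. KO-labelled mouse 2 was the highest of its group for all 4 members. Wild-type mouse 2 was the lowest of its group for Oas3, Oasl1 and Oasl2, but not for Oas2. Its library had a TMM factor of 0.7583, where the other libraries had 0.9533 to 1.125. The exception for Oas2 rests on the scaling: mouse 2 had 475 of 82850098 estimated counts and mouse 3 had 450 of 66999050. With DESeq2 size factors these mice were at 7.52 and 6.60 CPM.

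**Figure D3:**
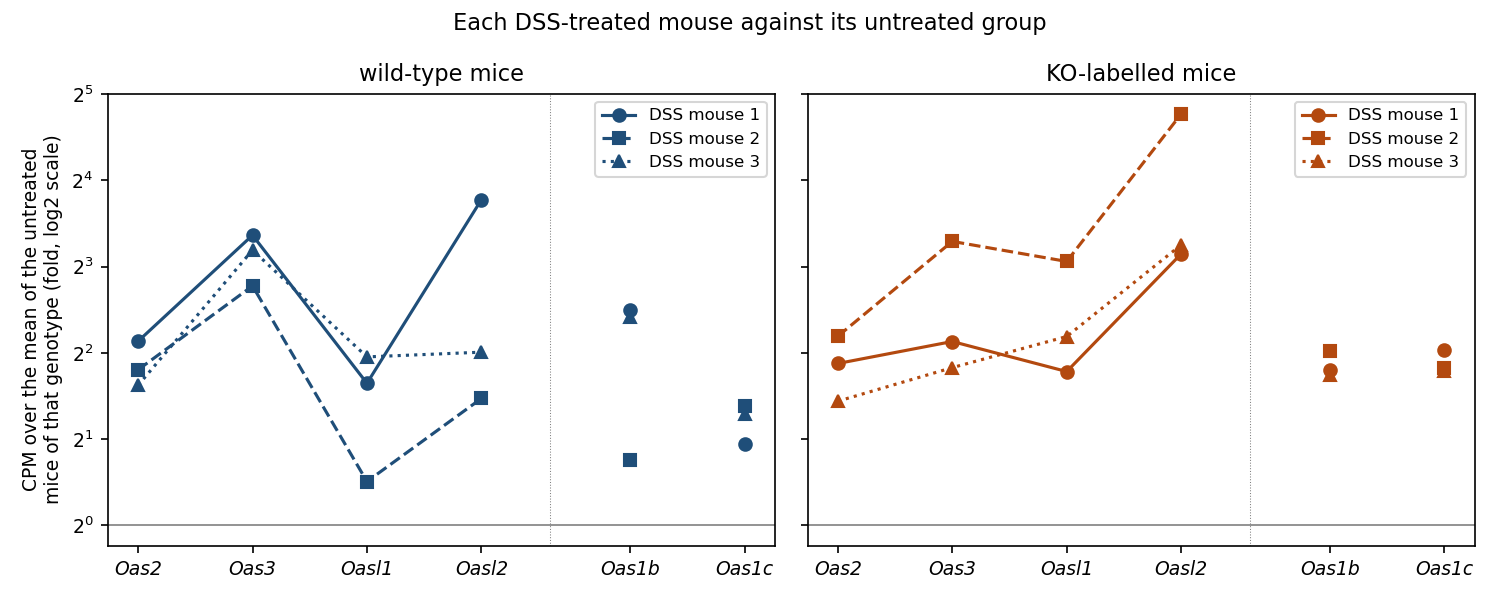
CPM of each DSS-treated mouse over the mean of the untreated mice of its genotype (fold, log2 axis), for the members and for Oas1b and Oas1c, with 1 symbol a mouse. For Oasl2 the folds run from 2.77 to 13.7 in wild-type and from 8.86 to 27.3 in KO-labelled mice, and for Oas2 from 2.71 to 4.57 over both genotypes.

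Cell type markers also differed between DSS-treated and untreated livers. Of all 17652 tested genes 80 were called higher and 41 lower with DSS in wild-type mice, and 806 and 434 in KO-labelled mice. Of 8 hepatocyte markers, 0 were called in wild-type mice and 2 fell in KO-labelled mice, Hnf4a by 0.70 and Cyp2e1 by 2.10 on the log2 scale. Alb held 79.1% of the hepatocyte sum. The other 7 summed to 23156 to 29108 CPM without and 17726 to 27395 CPM with DSS in wild-type mice, and to 29988 to 36218 CPM and 19310 to 27741 CPM in KO-labelled mice, where the groups did not overlap. Kupffer cell markers (10 of 11 with a row) summed to 331 to 666 CPM in untreated and 522 to 1115 CPM in DSS-treated wild-type mice, and 0 of the 10 were called. In KO-labelled mice they summed to 411 to 452 CPM and 789 to 1218 CPM, and 9 of 10 rose. Of the monocyte markers (6 of 7), Fn1, which hepatocytes also make, held most of the sum. The other 5 summed to 12.8 to 24.4 CPM and 30.4 to 80.2 CPM in wild-type mice, and to 16.1 to 19.8 CPM and 47.8 to 138.4 CPM in KO-labelled mice. Of the 6, Plac8 and Ms4a4c rose in wild-type mice, and these and Chi3l3 rose in KO-labelled mice. Neutrophil markers (9 of 9) summed to 2.39 to 4.25 CPM without and 2.85 to 118.6 CPM with DSS in wild-type mice, and to 0.455 to 0.972 CPM and 7.03 to 25.3 CPM in KO-labelled mice. None of the 7 neutrophil markers that passed the filter was called in either genotype. Ly6g, a defining neutrophil marker, was at 0 in both untreated groups. Markers of plasmacytoid dendritic cells (6 of 7) other than Bst2, which held 74.0% of the sum, summed to 35.8 to 38.2 CPM without and 43.9 to 53.8 CPM with DSS in wild-type mice, and to 41.5 to 45.3 CPM and 56.3 to 58.9 CPM in KO-labelled mice. Of the 6, 2 rose in KO-labelled mice, Bst2 and Irf8, which interferon also induces. T and NK cell markers (13 of 13) summed to 9.21 to 21.7 CPM and 4.51 to 15.9 CPM in wild-type mice, and to 8.39 to 11.4 CPM and 16.2 to 29.0 CPM in KO-labelled mice, where Gzma and Prf1 rose. B cell markers (6 of 7) summed to 6.95 to 7.90 CPM without and 3.76 to 5.70 CPM with DSS in wild-type mice, where 0 were called, and to 2.79 to 3.20 CPM and 5.11 to 11.6 CPM in KO-labelled mice, where Pax5 rose. Stellate cell markers (7 of 8) other than Dcn summed to 272 to 348 CPM without and 150 to 269 CPM with DSS in wild-type mice, with 0 called, and to 226.5 to 265.7 CPM and 247 to 261 CPM in KO-labelled mice, where Des rose. No marker of sinusoidal endothelium (8 tested) or cholangiocytes (4 tested) was called in either genotype. The highest neutrophil and Kupffer cell sums among DSS-treated wild-type mice, 118.6 and 1115 CPM, were in mouse 2, the mouse with the lowest Oas3, Oasl1 and Oasl2. The part of these cells in the members' values was not tested.

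Other genes of the OAS pathway were called in KO-labelled mice. Of 11 listed genes 8 had a row and 4 were tested. With DSS 0 were called in wild-type mice and 3 rose in KO-labelled mice, where 0.453% and 4.57% of all tested genes were called higher. The 4 had median log2 fold changes of 0.81 and 1.43, beside 0.02 and -0.01 over all tested genes. Oas1b, an OAS1 family gene known for flavivirus resistance, had a log2 fold change of 2.08 in wild-type mice (edgeR adjusted p = 0.0518) and rose by 1.85 in KO-labelled mice (adjusted p = 0.0239). Oas1c had 1.21 in wild-type mice (adjusted p = 0.0965) and rose by 1.89 in KO-labelled mice (adjusted p = 0.00694). Akap7, whose product can degrade oligoadenylates, had 0.41 (adjusted p = 0.518) and 1.00 (adjusted p = 0.0425). Abce1, an ATP-binding protein of ribosome recycling, had -0.29 and -0.03 and was called in neither. Oas1d, Oas1e and Oas1f had no counts in any library, and Oas1h had at most 12.

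Transcripts of the interferons themselves were at low counts where detected. Ifnk had counts in 12 of 12 libraries, at most 48, and Ifng in 11, at most 16. Both were tested and neither was called. Ifnb1 had 3 counts in 1 library and Ifna13 had 4 counts in 1 library. Of the 6 interferon and receptor genes tested, 0 were called in wild-type mice and 1 in KO-labelled mice, Ifngr2, a chain of the interferon gamma receptor (log2 fold change 1.13, adjusted p = 0.00599). Of 14 signalling genes 3 rose in wild-type and 7 in KO-labelled mice, with medians of 0.35 and 0.65. Of all tested genes 0.453% and 4.57% were called higher with DSS in these genotypes, with medians of 0.02 and -0.01. Irf7, the factor whose translation Oasl1 restrains, rose by 2.26 (adjusted p = 0.00756) and 2.53 on the log2 scale (adjusted p = 0.000957). Usp18, a brake on the interferon receptor, rose by 1.67 (adjusted p = 0.0101) and 2.93 (adjusted p = 0.00015), and the inhibitor Socs1 rose by 2.89 (adjusted p = 0.0222) and 2.71 (adjusted p = 0.0081).

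Among 13 genes listed for the sensing of RNA and DNA, 3 rose in wild-type and 7 in KO-labelled mice. The list also holds adaptors and an RNA-editing enzyme, and that enzyme was among the genes called in both genotypes. Of all tested genes 0.453% and 4.57% were called higher in these comparisons. The 13 genes had median log2 fold changes of 1.13 and 1.46. Dhx58, which encodes the RIG-I-like receptor LGP2, rose by 1.85 (edgeR adjusted p = 0.0261) and 2.87 (adjusted p = 0.00124). Ddx58, which encodes RIG-I, rose by 1.22 (adjusted p = 0.0259) and 1.71 (adjusted p = 0.00174). Mavs, the adaptor of RIG-I, had -0.54 and -0.52 and was not called. Of 24 other interferon-stimulated genes 6 rose in wild-type and 24 in KO-labelled mice, beside the same 0.453% and 4.57% of all tested genes. Their medians were 1.74 and 2.53, beside 0.02 and -0.01 over all tested genes. By mouse, the median of these 24 over the untreated mean was, as log2, 2.09, 0.73 and 1.66 for wild-type mice 1, 2 and 3, so mouse 2 was lowest here as well. It was 2.54, 2.76 and 2.00 in the KO-labelled mice. No gene of these 5 lists was called lower with DSS, where 41 (wild-type) and 434 (KO-labelled) of 17652 tested genes were. Between genotypes and in the interaction 0 were called, where 0.0623% (untreated), 0.334% (DSS) and 0.408% (interaction) of all tested genes were called. The 24 other interferon-stimulated genes had a median log2 fold change of KO-labelled against wild-type mice of -0.39 in untreated liver, with 4 of 24 above 0, and of 0.45 with DSS, with 21 above 0. Their median interaction was 0.88, with 22 of 24 above 0, beside -0.02 over all tested genes, of which 8588 of 17652 were above 0.

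**Figure D4:**
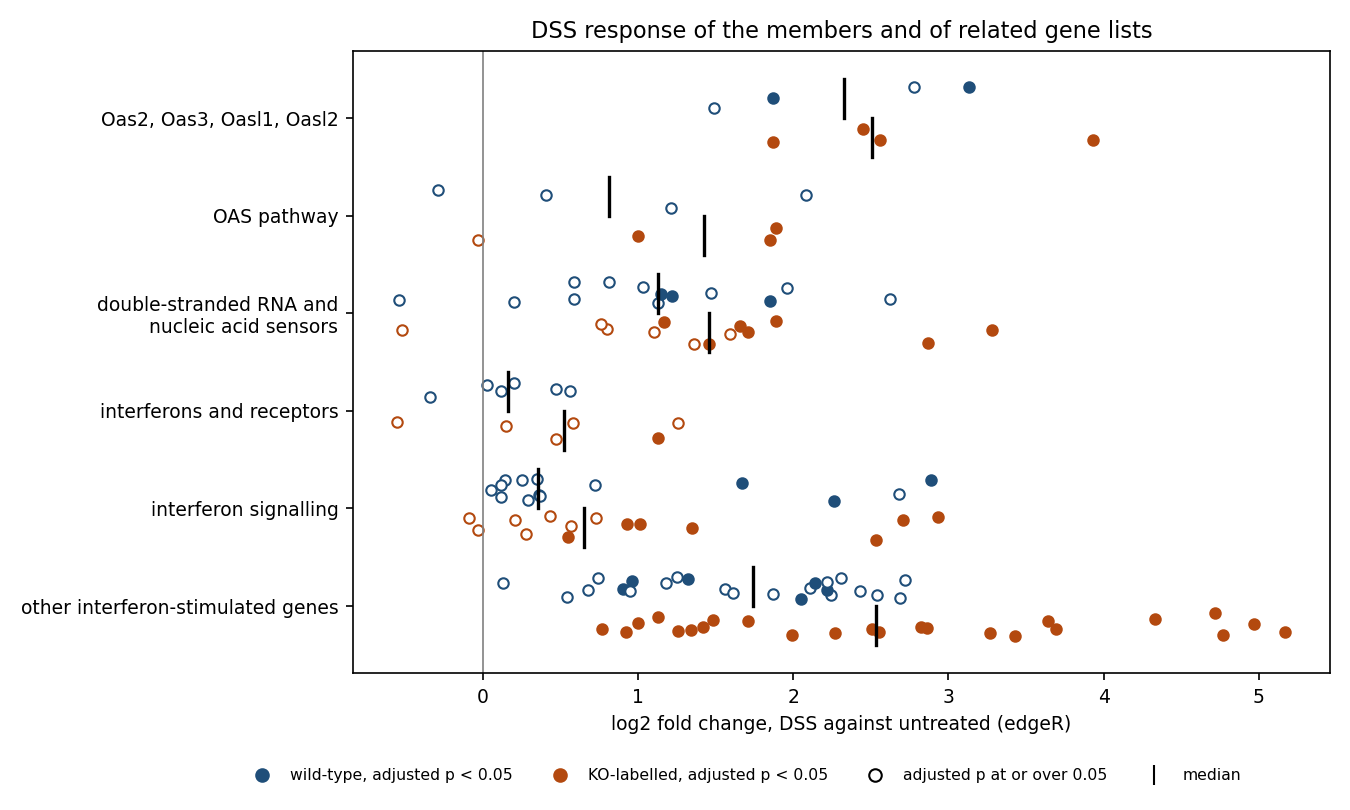
Log2 fold change with DSS (edgeR) of each tested gene, for the 4 members and the 5 lists, in wild-type (blue) and KO-labelled mice (orange), filled where the adjusted p was below 0.05, with the median as a bar. The members' medians, 2.32 and 2.50, stand beside 1.74 and 2.53 for the other interferon-stimulated genes and 0.16 and 0.52 for interferons and receptors.

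The genes most like the members over the 12 libraries were found by the Pearson correlation of log2 CPM with the members' mean standardised profile. They were Shisa5 (r = 0.979), Dhx58 (0.977), Zbp1, a sensor of Z-form nucleic acid (0.974), Xaf1 (0.973) and Ogfr, the opioid growth factor receptor gene (0.973). The libraries share depth, scaling and the DSS split, so these values describe likeness only, and 99 of 14416 genes (0.687%) had an r above 0.9. Shisa5 went from 30.7 to 78.9 CPM in wild-type and from 28.8 to 84.6 CPM in KO-labelled mice, and Xaf1 from 22.3 to 92.4 CPM and from 16.8 to 122.1 CPM. These levels follow from the choice by likeness and are a description.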

How the data were processed

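Paired-end reads came from rRNA-depleted liver RNA of 12 mice. Per the study's methods and the labels, the authors trimmed reads with fastp, aligned them to mm9 with HISAT2 and made gene counts with StringTie. The deposited values are estimated counts given as whole numbers, before normalization. They were read in R 4.3.3 and named by GENCODE vM1. Genes were filtered with filterByExpr, scaled by TMM and tested in edgeR 4.0.16 with the robust quasi-likelihood method, in 1 model of the 4 groups, with Benjamini-Hochberg adjustment over 17652 genes and a threshold of 0.05. Exact two-sided permutation tests used log2(CPM + 0.5). The labels number the replicates, which the study describes as biological. Levels per kilobase used merged exons.

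The members and gene lists were chosen with earlier results of these data known. Named genes were the 4 members, the 8 genes of the OAS pathway list counted as having a row, Rela and Stat3. Up to 4 called genes of each other list by smallest p, the 5 genes most like the members and cell type markers were named too. Mavs and the interferons were named after their values were seen. Alternatives were DESeq2 1.42.0, limma-voom (limma 3.58.1) with quality weights, DESeq2 size factors, a fit of only the 2 groups compared, a minimum of 10 counts per library or no filter, a replicate block and leaving out each library. The fit was tested on simulated data. No library pair was identical. Listed genes with no row were not analysed here. A gene of the OAS pathway list is not reported here and was left out of its counts.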

Additional observations from a re-analysis of the deposited data

How the results depend on the processing

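Oas2 and Oas3 passed the threshold with DSS in both genotypes under all 19 alternatives, with log2 fold changes of 1.71 to 1.98 and 3.00 to 3.27 in wild-type and 1.68 to 2.16 and 1.99 to 2.83 in KO-labelled mice. Of the 4 members DESeq2 called 4 in wild-type mice, against 2 with edgeR, and the cause was not tested. Leaving out each library in turn, 2 to 3 were called in wild-type mice, 2 to 4 in KO-labelled mice, and 0 to 1 between genotypes with DSS (Oasl2, without wild-type mouse 1). The share of all genes called moved with these counts: it was 0.7% without DSS-treated wild-type mouse 2, where 3 members were called, 0.837% without untreated KO-labelled mouse 2, where 2 were, and 2.14% without DSS-treated wild-type mouse 1, against 0.453%, 4.57% and 0.334% with all mice. No fold change that was called reversed. With a replicate block 2 members were called with DSS in wild-type and 4 in KO-labelled mice and 0 in the other comparisons, so no call changed. The mouse numbers gave no clear pairing of the libraries. Deviations from the group means of same-numbered mice correlated at -0.07 to 0.21, above 0.1 in 5 of 18 pairs. Those of differently numbered mice correlated at -0.26 to 0.22, and the difference between these sets of pairs was not tested. With 3 mice a group, Oasl1 and Oasl2 were measured with standard errors up to 0.66 on the log2 scale for the DSS response.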
